A study of Mus musculus with 10 samples.

Results

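The mitochondrial genome of the mouse carries 37 genes, 13 for proteins, 2 for ribosomal RNAs and 22 for transfer RNAs, and their symbols all begin with mt-. These 37 genes were taken by symbol from the 54838 genes listed for crypts of the jejunum in 5 WT and 5 Arid3a cKO mice. In the cKO mice, VillinCre-ERT2+/−; Arid3a fl/fl, tamoxifen deletes Arid3a in cells in which the Villin promoter is active, that is in the epithelium, so that other cells of the crypt preparation keep the gene. Both genotypes received tamoxifen on 3 consecutive days and were taken 1 month after the first dose. Whether the WT animals carried the Cre or a floxed allele, and the ages, were not given in the sources used here. The labels gave the animal codes of the WT mice in 1 series and those of the cKO mice in another, so colony or litter, and with it the maternally inherited mitochondrial genome, cannot be told apart from genotype.

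Each animal gave 1 library of poly(A)-selected RNA, with 27050455 to 28152743 counts in WT and 28314069 to 31053622 in cKO. Arid3a fell in the cKO libraries, from 55 to 81 counts in each WT library to 9 to 31 counts in each cKO library (log2 fold change −1.84 ± 0.32 SE, adjusted p = 0.00204, quasi-likelihood test of edgeR, adjusted by the Benjamini-Hochberg method). The epithelial markers Epcam, Cdh1, Krt8, Krt18, Vil1, Cdx1 and Cdx2 were present in both genotypes, with a summed level, as normalised CPM (counts scaled to a common library size), of 4972 to 5686 in WT and 5692 to 6365 in cKO.

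Mitochondrial DNA is copied by the RNA polymerase POLRMT into long RNAs from both of its strands, called heavy (H) and light (L). Most genes lie on the RNA copied from the H strand, where tRNAs punctuate the mRNAs and rRNAs and are cut out by RNase P and ELAC2. Most of the mRNAs are then given short poly(A) tails, and in several of them the tail completes the stop codon. The 13 proteins are core subunits of the respiratory chain and of ATP synthase: 7 of complex I (mt-Nd1 to mt-Nd6 and mt-Nd4l), 1 of complex III (mt-Cytb), 3 of complex IV (mt-Co1 to mt-Co3) and 2 of complex V (mt-Atp6 and mt-Atp8). In the intestine, oxidative phosphorylation is prominent both in crypt stem cells and in absorptive enterocytes.

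In the annotation used, 28 of the genes were copied from the H strand and 9 from the L strand, namely mt-Nd6 and 8 tRNAs. The L-strand gene mt-Nd6 lies at chrM:13552-14070 and is exonic over its whole length, as are all mt- genes. Its last 14 bases lie opposite the end of mt-Nd5 (chrM:11742-13565). Between mt-Nd5 and mt-Cytb (chrM:14145-15288) the annotation holds no gene on the H-strand RNA, but only mt-Nd6 and mt-Te on the opposite strand. The ends of the genes are given because they show how each mRNA stops and how mt-Nd5 and mt-Nd6 meet. They are the last 30 bases from the GENCODE M21 transcripts on GRCm38, 5′ to 3′, with the encoded bases of the stop codon in capitals:
mt-Nd6: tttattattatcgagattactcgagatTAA
mt-Nd5: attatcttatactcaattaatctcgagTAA
mt-Cytb: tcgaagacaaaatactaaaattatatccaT
mt-Nd4: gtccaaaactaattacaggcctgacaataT
mt-Co3: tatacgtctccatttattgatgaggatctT
A whole stop codon was encoded in 10 of the 13 coding genes, and 3, mt-Cytb, mt-Nd4 and mt-Co3, ended in its first base. The first 60 bases of mt-Nd6 show the different base composition of the RNA copied from the other strand, with the start codon in capitals:
mt-Nd6: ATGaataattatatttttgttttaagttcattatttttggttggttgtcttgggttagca
Over its 519 bases mt-Nd6 held 28.1% G and 5.97% C, whereas the other 12 coding genes held 5.88% to 16.1% G and 22.1% to 29.97% C.

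Part of the mitochondrial genome also exists as a copy in the nuclear genome, and the counts of several genes cannot be read without it. On chromosome 1 of GRCm38, at chr1:24611535-24616197 on the minus strand, the annotation holds 7 unprocessed pseudogenes that repeat mt-Co1 (its last 483 bases), mt-Co2, mt-Atp6, mt-Co3, mt-Nd3, mt-Nd4l and part of mt-Nd4 (876 bases). The copies of mt-Co2, mt-Atp6, mt-Co3, mt-Nd4l and mt-Nd4 had no mismatch over the aligned bases, and those of mt-Co1 and mt-Nd3 had 1 each. The stretches around these bases are printed because they are the only places inside the aligned parts at which a read could tell the gene from its copy. Positions count from 1 at the first base of the mitochondrial gene, the base that differs is in capitals, and the substitutions from gene to copy are A1066T in mt-Co1 and T3C in mt-Nd3:
mt-Co1: ggaAttgttttatccaac
Gm29216: ggaTttgttttatccaac
mt-Nd3: atTaacctgtacactgt
Gm28438: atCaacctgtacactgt
The mt-Co1 stretch lies at chrM:6390-6407 and that of its copy Gm29216 at chr1:24616171-24616188. For mt-Nd3 the stretch is chrM:9459-9475, and for its copy Gm28438 it is chr1:24613103-24613119. No such copy was annotated for the other 6 coding genes, mt-Nd1, mt-Nd2, mt-Atp8, mt-Nd5, mt-Nd6 and mt-Cytb. Copies elsewhere in the nuclear genome, of at least 100 aligned bases and 90% identity, held no more than 106 counts in any library.

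Mitochondrial genes took a larger share of the library in every cKO animal than in any WT animal. All 37 genes together held 7.22% ± 0.99 of the expected counts in WT and 9.68% ± 1.02 in cKO (SD, n = 5 each). The WT libraries lay at 8.27%, 6.94%, 7.04%, 5.81% and 8.06% for animals 1 to 5, and the cKO libraries at 8.34%, 10.7%, 9.79%, 8.98% and 10.6%. The groups did not overlap, but WT animal 1 and cKO animal 1 were set apart by less than the SD of either group. With the counts of the chromosome 1 copies added, the shares were 10.8% ± 1.42 in WT (8.74% to 12.1%) and 14.3% ± 1.61 in cKO (12.4% to 15.97%). The copies alone held 33.1% ± 0.86 of this sum in WT and 32.5% ± 0.87 in cKO, with overlap. Since the mitochondrial genes were chosen with this contrast known, their differences between genotypes are a description, without p-values, and calls are counted for them once, beside the share of all genes called. In bulk RNA, fewer cells of a type and less RNA per cell cannot be told apart.

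**Figure D1:**
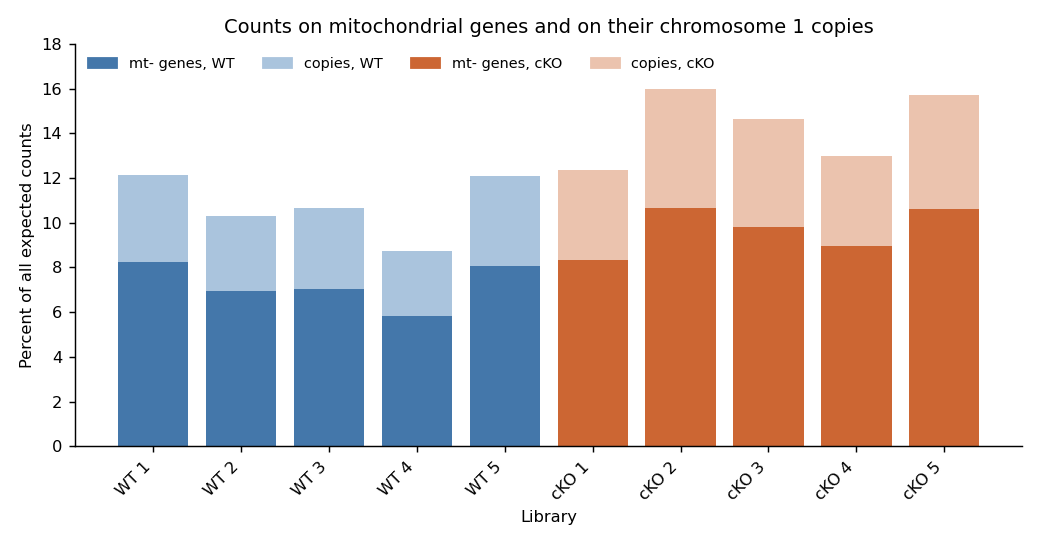
Percent of all expected counts on the 37 mitochondrial genes (dark) and on their 7 chromosome 1 copies (light) in each library, WT in blue and cKO in orange. The mitochondrial genes sit at 5.81% to 8.27% in WT and 8.34% to 10.7% in cKO, and the copies add 2.93% to 5.29%.

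By class, the 13 mRNAs made up nearly all of it, with 7.03% ± 0.95 of all counts in WT and 9.44% ± 0.97 in cKO. The rRNAs mt-Rnr1 and mt-Rnr2, which form the small and large subunits of the mitochondrial ribosome, held 0.191% ± 0.044 in WT and 0.241% ± 0.056 in cKO. These ranges overlapped, from 0.138% to 0.240% and from 0.161% to 0.318%. In living cells these rRNAs are abundant, but the libraries were selected by poly(A) tail, so that their level here does not stand for the amount of ribosomes.

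The tRNAs were nearly absent from these libraries. They are 59 to 75 bases long, shorter than the 98.6 bases by which the deposited effective lengths fell short of the gene lengths at most, and 14 of the 22 were at 0 in all 10 libraries. A count of 0 in a library allows up to 3 counts. Only mt-Ts1, mt-Tl1 and mt-Tm had more than 3 counts in any library. The tRNA with the most counts was mt-Ts1 (chrM:6870-6938, minus strand), whose last 3 bases lie opposite the end of mt-Co1 and which reads:
mt-Ts1: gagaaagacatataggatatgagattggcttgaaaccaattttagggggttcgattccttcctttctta
It had 4, 6, 0, 3 and 6 counts in WT animals 1 to 5 and 13, 15, 53, 10 and 11 in cKO animals. The H-strand tRNA mt-Tl1, for leucine, had 0 to 2 counts in WT and 0 to 5 in cKO. The tRNA for methionine, mt-Tm, had 0 to 1 in WT and 0 to 5 in cKO. Counts of the other tRNAs were too low at this depth to compare the genotypes. The difference in mt-Ts1 was not tested, since no tRNA had enough counts for the fit.

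Of the 37 genes, 15 passed the filter on low counts, the 13 mRNAs and both rRNAs. In the fit over all 14719 tested genes, 28.3% were called at an adjusted p of 0.05, 15.6% higher and 12.7% lower in cKO. Among the 15 mitochondrial genes 11 were called higher, 1, mt-Nd3, was called lower, and mt-Rnr1, mt-Nd4l and mt-Cytb were not called. Every cKO library lay above every WT library for 9 of them, where 12.0% of all tested genes showed this, and in either direction 10 did not overlap (19.6% of all tested genes). The median log2 fold change of the 13 coding genes was 0.57, and that of all tested genes was −0.03. With scaling by library size alone, which shifted all genes down, these medians were 0.45 and −0.16. Nothing is read from these counts, which come from the contrast that chose the genes.

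**Figure D2:**
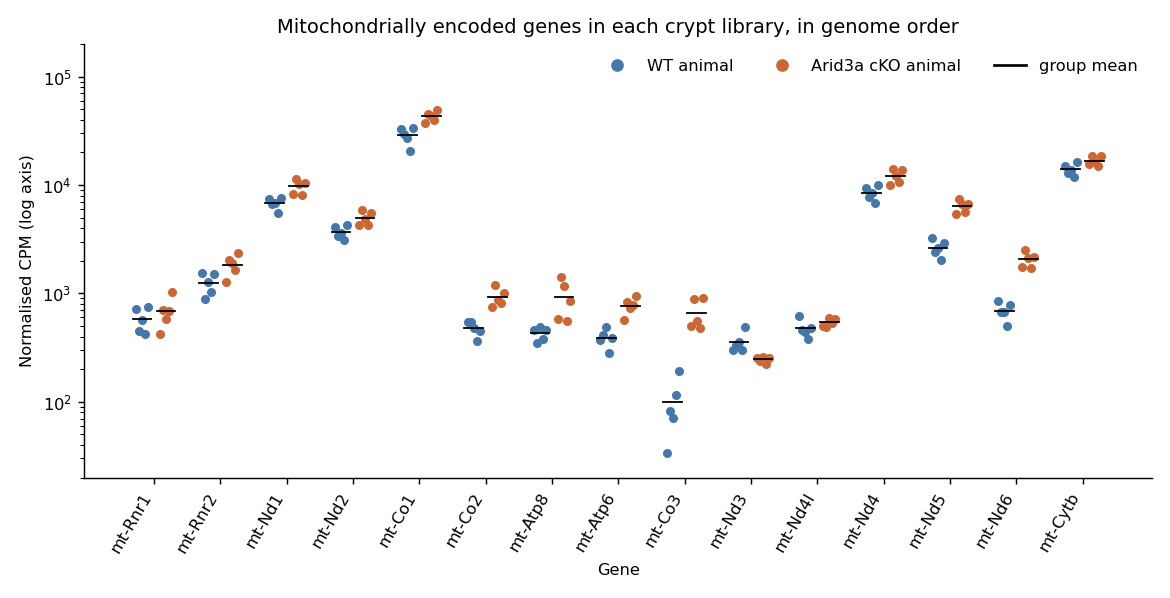
Normalised CPM (log axis) of the 15 tested mitochondrial genes in genome order, 1 point per animal, with black bars for the group means. The cKO points lie above all WT points for mt-Nd6, mt-Nd5 and mt-Co3, below them for mt-Nd3, and among them for mt-Nd4l and mt-Cytb.

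The L-strand gene mt-Nd6, the only mRNA of its strand, encodes a membrane subunit of complex I. Its normalised CPM, after scaling of the libraries by trimmed mean of M-values, was 856, 667, 678, 496 and 776 in WT animals 1 to 5. In cKO animals 1 to 5 it was 1749, 2537, 2139, 1709 and 2153. Every cKO animal thus lay above every WT animal, with a wide gap between the groups. The log2 fold change was 1.57 ± 0.15 (SE), a 2.96-fold higher level in cKO. These are counts over the bases of mt-Nd6 in libraries selected by poly(A) tail. Whether its RNA carried a tail, and how far the counts stand for its level, was not tested. As a share of the counts on the 13 coding genes, mt-Nd6 rose from 1.02% ± 0.07 in WT (0.950% to 1.13%) to 2.07% ± 0.15 in cKO (1.93% to 2.30%), a measure that needs no scaling between libraries.

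Its neighbour mt-Nd5, on the H-strand RNA, encodes a proton-pumping subunit of the same complex. It had 3251, 2413, 2632, 2028 and 2909 CPM in WT animals 1 to 5. In the cKO animals it had 5411, 7423, 6638, 5605 and 6726 CPM. The groups did not overlap here either, and the log2 fold change was 1.27 ± 0.13. The H-strand gene that follows mt-Nd6 is mt-Cytb, the only complex III subunit of the mitochondrial genome. Its CPM was 11860 to 16445 in WT and 14958 to 18421 in cKO, with overlap between the groups and a log2 fold change of 0.25 ± 0.11.

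The sole gene with a larger fold change than mt-Nd6 was mt-Co3, a core subunit of cytochrome c oxidase, at 2.75 ± 0.45 on the log2 scale. Its normalised CPM was 33.7, 81.6, 70.2, 116 and 193 in WT animals 1 to 5. In cKO animals 1 to 5 it was 498, 892, 552, 478 and 902. These values were a small part of what was counted for its sequence. The copy Gm28437 repeats 783 of the 784 bases of mt-Co3 and held 7833 to 11810 CPM in WT. The share of the pair that was counted on mt-Co3 itself was 0.32% to 1.61% in WT and 3.67% to 5.76% in cKO. Summed with its copy, mt-Co3 had 9939 ± 1506 CPM in WT and 14173 ± 1810 in cKO, a log2 fold change of 0.51 ± 0.12. The groups then touched, since the highest WT animal, at 12002 CPM, lay just above the lowest cKO animal, at 11972 CPM.

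The division went the other way for mt-Nd3, which encodes another complex I subunit and was the one coding gene with a negative log2 fold change. Alone, it had 300 to 489 CPM in WT and 223 to 259 in cKO, a log2 fold change of −0.54 ± 0.12. The share of the pair counted on mt-Nd3 was 38.7% to 49.6% in WT and 22.0% to 30.6% in cKO. Its copy Gm28438 alone had a log2 fold change of 0.74 ± 0.17. With the copy added, mt-Nd3 had 779 ± 172 CPM in WT and 953 ± 124 in cKO, which overlapped, and its log2 fold change turned to 0.29 ± 0.14.

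**Figure D3:**
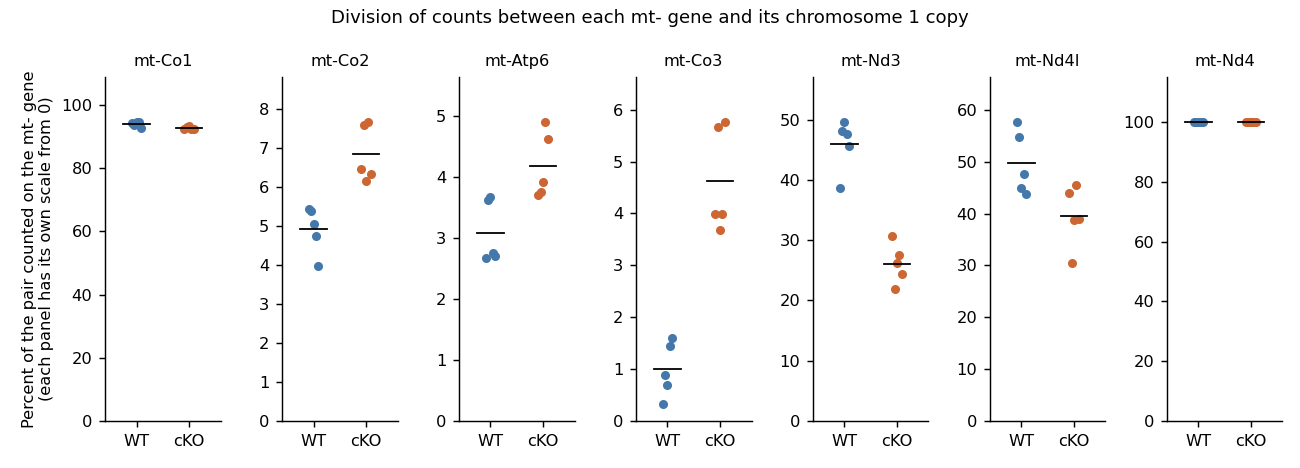
Percent of the counts of each gene and copy pair that fell on the mitochondrial gene, 1 point per animal, with black bars for the group means and a separate scale from 0 in each panel. The groups do not overlap for mt-Co2, mt-Atp6, mt-Co3 and mt-Nd3.

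For other pairs the share on the mitochondrial gene went up in some and down in others. For mt-Co2, which binds the copper site that receives electrons from cytochrome c, 3.98% to 5.44% of the pair was counted on the mitochondrial gene in WT and 6.16% to 7.66% in cKO. For mt-Atp6, the proton channel subunit of ATP synthase, it was 2.67% to 3.68% and 3.71% to 4.91%. Both pairs were thus counted mostly on chromosome 1, in every library, and without overlap between the genotypes. For mt-Nd4l the mitochondrial share was 43.8% to 57.7% in WT and 30.4% to 45.5% in cKO, with overlap. For mt-Co1 it was 92.8% to 94.6% and 92.3% to 93.4%. The copy of mt-Nd4 held 0 counts in all libraries. A read that fits a gene and an identical copy is divided between them by the counting tool, so that the counts of these 7 genes alone are uncertain, and why the division differed between genotypes was not tested.

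Once each copy was added to its gene, the 13 mRNAs were much more alike. All 13 had a positive log2 fold change, from 0.25 to 1.57 with a median of 0.52. The values for mt-Co2 and mt-Atp6 went from 0.95 ± 0.14 and 0.99 ± 0.15 to 0.48 ± 0.13 and 0.55 ± 0.13. That for mt-Nd4l went from 0.19 ± 0.12 to 0.55 ± 0.13. The genes mt-Co1 and mt-Nd4 moved little, to 0.59 ± 0.14 and 0.51 ± 0.13. Of the genes without a chromosome 1 copy, mt-Nd1 lay at 0.52 ± 0.12 and mt-Nd2 at 0.43 ± 0.12. With mt-Cytb and mt-Nd3 included, 10 of the 13 thus lay between 0.25 and 0.59. The 3 genes above them were mt-Nd6 (1.57), mt-Nd5 (1.27) and mt-Atp8 (1.10), none of which has a copy annotated on chromosome 1. The groups then did not overlap for 8 of the 13, beside 19.6% of all tested genes before copies were added. Nothing is read from this count, since the genes were chosen with this contrast known.

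**Figure D4:**
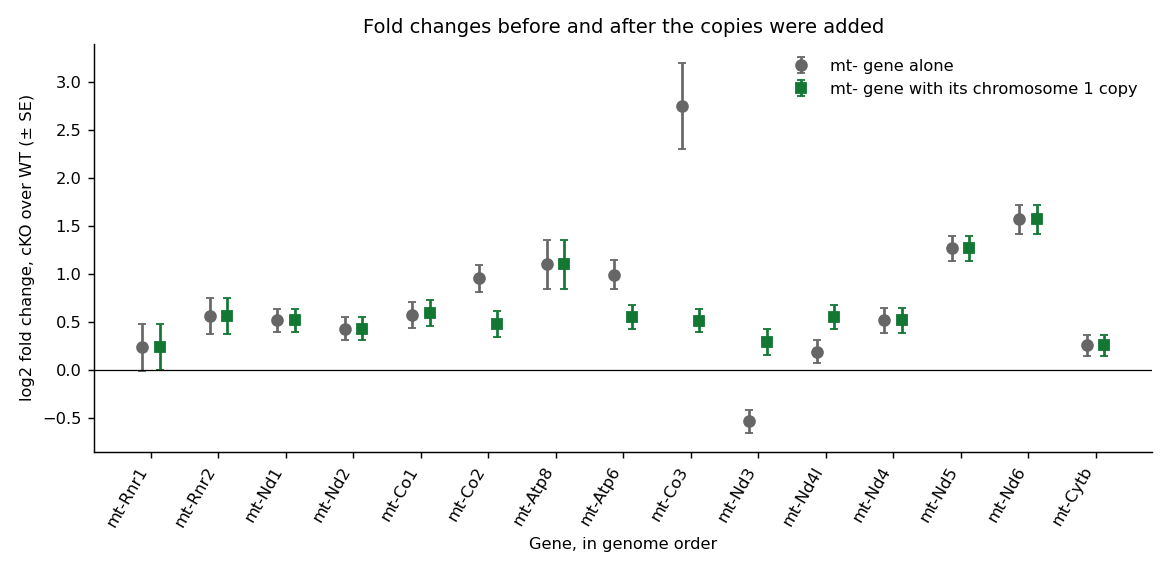
Log2 fold change, cKO over WT, of each tested mitochondrial gene alone (grey circles) and with its chromosome 1 copy (green squares), with bars for the SE of the fit. The values alone range from −0.54 to 2.75, and with the copies from 0.23 to 1.57.

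The third of these genes, mt-Atp8, encodes a small ATP synthase subunit and shares 43 bases and, in mammals, a single mRNA with mt-Atp6. Its CPM was 458, 349, 494, 376 and 464 in WT animals 1 to 5 and 586, 1410, 1181, 557 and 852 in cKO animals. The cKO animals were widely spread, and the lowest of them lay just above the highest WT animal. The log2 fold change of 1.10 ± 0.26 therefore had a larger SE than that of mt-Nd6. The annotated copies on chromosome 1 leave out the part that corresponds to mt-Atp8, and its summed value with a copy could not be given.

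The rRNAs moved less evenly between animals. The small subunit rRNA, mt-Rnr1, had 421 to 756 CPM in WT and 420 to 1034 in cKO, a log2 fold change of 0.23 ± 0.24. The large subunit rRNA, mt-Rnr2, had 886 to 1546 CPM in WT and 1267 to 2370 in cKO, a log2 fold change of 0.56 ± 0.19. The groups overlapped for both genes.

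Levels between genes were compared per kilobase of effective length, with the copies added. In WT, mt-Atp6 (21726 ± 3031 CPM per kilobase) and mt-Co1 (21255 ± 4017) were highest, followed by mt-Co2, mt-Co3 and mt-Cytb (13405 ± 1713). After a gap that no animal bridged, from 11345 for the lowest animal in mt-Cytb to 8769 for the highest in mt-Nd1, came mt-Nd1, mt-Nd4, mt-Nd4l, mt-Atp8, mt-Nd2 and mt-Nd3 (3123 ± 691). Another gap, from 2526 for the lowest animal in mt-Nd3 to 2035 for the highest in mt-Nd6, set apart mt-Nd6 (1652 ± 321) and mt-Nd5 (1534 ± 271). All other neighbours in this order overlapped in their ranges over animals, which does not compare the genes within each animal. The complex IV and complex V genes mt-Co1, mt-Co2, mt-Co3 and mt-Atp6 were thus at the top, and 7 complex I genes lay below mt-Cytb. In cKO the upper gap was still there, with mt-Cytb at 14308 to 17621 and mt-Nd1 at 9484 to 13310. The lower gap was not, since the range over animals of mt-Nd6 (4064 to 6034) overlapped those of mt-Nd2 (4504 to 6300) and mt-Nd3 (3254 to 4374). Within each cKO animal mt-Nd6 still lay below mt-Nd2. By group mean mt-Nd6 lay above mt-Nd3 in cKO (4892 and 3819) but below it in WT.

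Although they lie on opposite strands, mt-Nd6 and mt-Nd5 had almost the same level per kilobase in WT. The ratio of mt-Nd6 to mt-Nd5 was 1.08, 1.13, 1.06, 1.01 and 1.09 in WT animals 1 to 5 and 1.33, 1.40, 1.32, 1.25 and 1.31 in cKO animals. Between mt-Nd5 and mt-Cytb, both on the H-strand RNA, the ratio was 0.114 ± 0.010 in WT and 0.230 ± 0.015 in cKO. The ratio of mt-Nd5 to mt-Nd4, the H-strand gene before it, was 0.231 ± 0.015 in WT and 0.391 ± 0.018 in cKO. None of these ratios overlapped between the genotypes. By these counts, mt-Nd5 thus stood higher against the annotated H-strand genes on both sides in every cKO animal than in any WT animal. The counts may hold RNA of either strand, as the next paragraph shows.

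**Figure D5:**
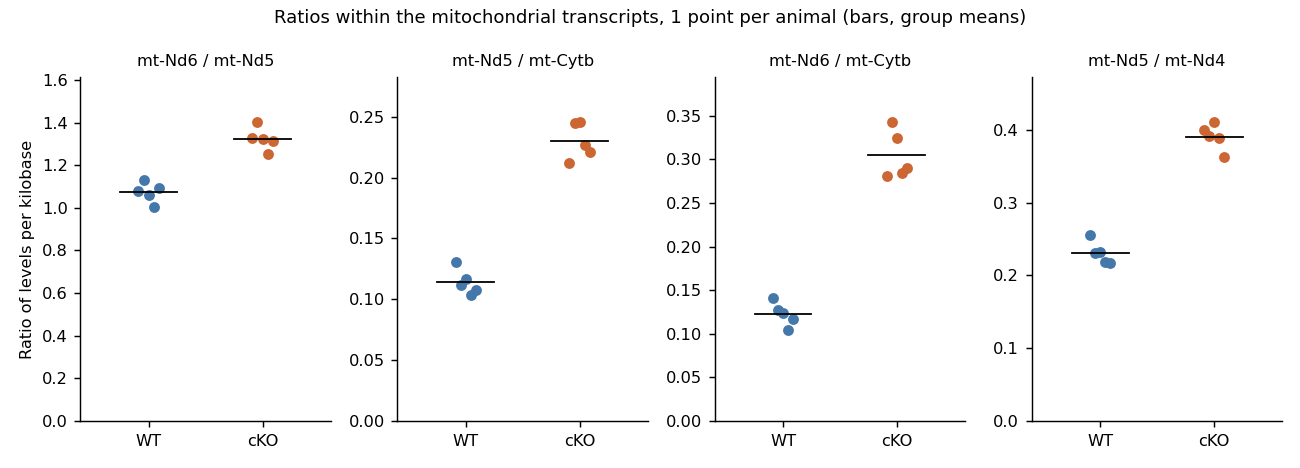
Ratios of levels per kilobase between mitochondrial mRNAs, 1 point per animal, with black bars for the group means. The ratio of mt-Nd6 to mt-Nd5 is 1.01 to 1.13 in WT and 1.25 to 1.40 in cKO, and mt-Nd5 to mt-Cytb is 0.104 to 0.130 and 0.212 to 0.246.

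Whether mt-Nd6 counts stand for L-strand RNA at all depends on whether the reads were counted by strand, which was not given in the sources used here. The deposited counts bear on it. When a read fits more than 1 gene it is divided, and the counts of such genes are not whole numbers. Of 8448 genes with no exon opposite another gene of at least 50 mean counts, 26.6% had a count that was not whole. Of 322 with an opposite overlap of 1 to 99 bases, 27.02% had one. Where the opposite overlap was 100 to 299 bases the share was 88.0% of 499 genes, and from 300 bases on it was 97.8% of 740 genes. Genes that share bases only with the opposite strand thus had divided reads, which a count by strand would not give. Reads of mt-Nd6 and reads of H-strand RNA over the same bases therefore cannot be told apart in these counts. Nor can reads of mt-Nd5, or of another H-strand gene, and reads of L-strand RNA over its bases. The comparison of heavy with light strand thus rests on annotation alone.

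On that annotation, the 9 L-strand genes held 0.0725% ± 0.0136 of all counts in WT and 0.196% ± 0.030 in cKO, and the groups did not overlap. Nearly all of it was mt-Nd6, with 14819 to 24582 counts in WT and 50243 to 68824 in cKO, beside 0 to 8 and 11 to 56 counts on the 8 L-strand tRNAs. The 28 H-strand genes held 7.15% ± 0.97 in WT and 9.49% ± 1.00 in cKO. Without mt-Nd5, the H-strand genes held 6.87% ± 0.93 and 8.88% ± 0.93, and WT animal 1 (7.83%) then lay above cKO animal 1 (7.66%).

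Scaled to the total of the 13 coding genes with their copies, most of the genes kept their place. Of this total, mt-Nd6 made up 0.680% ± 0.052 in WT and 1.39% ± 0.09 in cKO. For mt-Nd5 it was 2.60% ± 0.18 and 4.30% ± 0.16. In the other direction, mt-Cytb went from 13.8% ± 0.66 to 11.4% ± 0.48 and mt-Nd3 from 0.765% ± 0.088 to 0.645% ± 0.017. These 4 genes did not overlap between the genotypes. The other 9 did, among them the most abundant, mt-Co1, at 30.1% ± 2.0 and 31.4% ± 1.5. Since all are parts of the same total, a larger share of some genes lowers that of others. This measure has no value for genes outside the total to set beside the count. Nothing is read from the count, since the genes were chosen with this contrast known.

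Of 79 nuclear genes for subunits of the 5 complexes, 78 had a positive log2 fold change in cKO, with a median of 0.18, but with scaling by library size alone 52 were positive and the median was 0.05. Of the 79, 13 (16.5%) were called higher and none lower, near the 15.6% of all tested genes called higher. With scaling by library size alone 2 were called higher and none lower, beside 10.5% and 27.4% of all tested genes. In complex I 5 of 36 were called higher. The 3 with the lowest adjusted p were Ndufa1 (0.47 ± 0.10, adjusted p = 0.0057), Ndufb3 (0.38 ± 0.11, adjusted p = 0.0237) and Ndufa6 (0.35 ± 0.10, adjusted p = 0.027), all accessory subunits. In complex III 2 of 9 were called higher, Uqcrb and the Rieske protein Uqcrfs1 (0.32 ± 0.10, adjusted p = 0.0288). Complex IV had 2 of 12, Cox7c and Cox7a1, an isoform known from heart and muscle (1.36 ± 0.32, adjusted p = 0.0125). Cox7a1 was at 9.72 ± 5.26 CPM in WT and 24.9 ± 2.1 in cKO. Complex V had 2 of 18, Atp5f1 and Atp5g3, and complex II, which has no mitochondrial gene, had Sdhb and Sdhd of 4. The summed level of every complex overlapped between the genotypes.

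Of 10 nuclear genes for mitochondrial transcription, 1 was called higher, Mterf2, a DNA-binding protein of the mitochondrial transcription termination factor family (0.76 ± 0.17, adjusted p = 0.0079). None was called lower, where 15.6% of all tested genes were called higher and 12.7% lower. The polymerase Polrmt was at 33.8 ± 3.7 CPM in WT and 29.4 ± 1.9 in cKO (log2 fold change −0.20 ± 0.08, adjusted p = 0.0898). The packaging and initiation factor Tfam had 116 ± 3.6 and 115 ± 5.8 CPM (adjusted p = 0.815). Tfb2m, which melts the promoter, and Tefm, the elongation factor, had log2 fold changes of 0.07 ± 0.06 and −0.05 ± 0.11, with adjusted p of 0.441 and 0.770.

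Among 24 genes of mitochondrial RNA processing and modification, 6 were called lower and 1 higher, beside 12.7% and 15.6% of all tested genes. With scaling by library size alone, 16 were called lower and 1 higher, beside 27.4% and 10.5% of all tested genes. The 3′ end nuclease of tRNAs, Elac2, fell from 47.9 ± 5.6 to 36.8 ± 1.7 CPM (−0.38 ± 0.08, adjusted p = 0.00574). The queuine tRNA transferase subunit Qtrt1 fell too (−0.47 ± 0.11, adjusted p = 0.0104). Nsun3, which modifies the tRNA for methionine, rose (0.49 ± 0.07, adjusted p = 0.00135).

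Of 17 genes of RNA stability and decay, Pde12, which removes poly(A) from mitochondrial RNA, was called lower (−0.30 ± 0.08, adjusted p = 0.0168), as was the RNA-binding protein Fastkd5 (−0.27 ± 0.09, adjusted p = 0.0375). None was called higher, where 12.7% of all tested genes were called lower and 15.6% higher. With scaling by library size alone 10 were called lower, beside 27.4% of all tested genes. The factors that bind or tail mRNAs did not pass the test. Lrpprc was at −0.10 ± 0.09 (adjusted p = 0.431), its partner Slirp at −0.03 ± 0.10 (adjusted p = 0.864) and the poly(A) polymerase Mtpap at 0.07 ± 0.07 (adjusted p = 0.512). Fastk, which is known to be required for mt-Nd6 mRNA, was at 42.8 ± 3.4 CPM in WT and 42.0 ± 4.1 in cKO, a log2 fold change of −0.03 ± 0.08 (adjusted p = 0.838). With scaling by library size alone, Tfam (−0.15), Polrmt (−0.33), Supv3l1 (−0.27) and Pnpt1 (−0.31) were called lower. In the fit used here, the helicase Supv3l1 and the nuclease Pnpt1, which together degrade RNA of the light strand transcript, were at −0.14 ± 0.07 (adjusted p = 0.163) and −0.18 ± 0.07 (adjusted p = 0.0631).

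For mitochondrial translation, the ribosomal proteins, tRNA synthetases and factors are all nuclear. Of 22 genes listed for tRNA aminoacylation 8 were called lower and none higher, with a median log2 fold change of −0.19. Besides mitochondrial synthetases the list holds the amidotransferase subunits Qrsl1, Gatb and Gatc. It also holds Gars and Kars, which serve the cytosol too and were both among those called lower. The lowest adjusted p were those of Yars2 (−0.41 ± 0.09, adjusted p = 0.00731), Mars2 and Sars2. Of 49 large subunit ribosomal proteins 2, Mrpl38 and Mrpl19, and of 33 small subunit proteins 1, Mrps18b, were called lower and none higher. Of 14 translation factors, Tsfm and Gfm1 were called lower. Beside these, 12.7% of all tested genes were called lower. With scaling by library size alone, 18 of the aminoacylation genes, 17 of the large and 20 of the small subunit proteins and 6 factors were called lower. The share of all tested genes called lower with that scaling was 27.4%.

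Among 17 genes of mitochondrial DNA replication and upkeep, 2 were called higher and 4 lower, beside 15.6% and 12.7% of all tested genes. With scaling by library size alone 1 was called higher and 10 lower, beside 10.5% and 27.4% of all tested genes. The pyrimidine nucleotide carrier Slc25a36 rose (0.56 ± 0.10, adjusted p = 0.00311), and the nuclease Dna2 (−0.38 ± 0.08, adjusted p = 0.00704) and Rnaseh1 (−0.31 ± 0.09, adjusted p = 0.0207) fell. Of 14 regulators of mitochondrial biogenesis, 3 were called higher and 2 lower (2 and 4 with scaling by library size alone). Ppargc1a, the coactivator PGC-1α, rose from 18.2 ± 4.8 to 43.7 ± 5.6 CPM (1.26 ± 0.17, adjusted p = 0.000991), and the nuclear receptor Esrra rose with it (0.45 ± 0.11, adjusted p = 0.0124). The related coactivator Pprc1 fell (−0.63 ± 0.10, adjusted p = 0.00149).

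Other measures moved with genotype in the same libraries. All 9 enterocyte markers were called higher, with a summed level of 1441 to 6957 CPM in WT and 8657 to 16050 in cKO. Of the 7 crypt markers 5 were called lower. The stem cell marker Lgr5 (−0.17 ± 0.26, adjusted p = 0.653) and the proliferation marker Mki67 (−0.19 ± 0.10, adjusted p = 0.172) were not called. The sum of the 7 was 10250 to 17515 CPM in WT and 7929 to 9681 in cKO, of which Olfm4 and Lyz1 gave most. Of 6 secretory markers, the enteroendocrine genes Chga and Chgb and the tuft cell gene Dclk1 were called higher and the secretory lineage factor Atoh1 lower. Beside these marker calls, 15.6% of all tested genes were called higher and 12.7% lower. In WT, animal 4 had both the lowest mitochondrial share, 5.81%, and the lowest enterocyte sum, 1441 CPM. WT animal 2 had the highest enterocyte sum, 6957 CPM, and a mitochondrial share of 6.94%, below the median of its group. In cKO, animal 5 had the highest enterocyte sum, 16050 CPM, and the second highest mitochondrial share, 10.6%. The next, animal 4, had 15810 CPM and 8.98%, and animal 3 had the lowest sum, 8657 CPM, and the median share, 9.79%. The part of cell composition in the mitochondrial values was not tested.

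Markers of other cells were low. Their calls stand beside 15.6% of all tested genes called higher and 12.7% called lower. The 7 immune markers summed to 281 to 513 CPM in WT and 91.3 to 300 in cKO, of which Cd74 gave most. Only 1 of them, the plasma cell gene Jchain, was called lower. Cd74 was not called (−1.01 ± 0.34, adjusted p = 0.051), though its groups did not overlap. The 7 stromal and muscle markers summed to 23.01 to 64.3 CPM in WT and 15.4 to 110 in cKO, and 2 were called lower, the endothelial gene Pecam1 (−1.19 ± 0.28, adjusted p = 0.00984) and the smooth muscle actin Acta2 (−1.60 ± 0.55, adjusted p = 0.0455). Of 20 measured nuclear RNAs of which all, or for Neat1 the long isoform, lack a poly(A) tail, 6 were tested. Malat1 was called higher (1.36 ± 0.23, adjusted p = 0.00317) and Rn7sk lower (−1.42 ± 0.29, adjusted p = 0.00573). Their summed level, of which Malat1 and Neat1 gave most, was 171 to 262 CPM in WT and 297 to 530 in cKO, and its part in the mitochondrial values was not tested.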

How the data were processed

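RNA-seq was done on jejunal crypts, with 1 library for each of 5 WT and 5 cKO mice. The authors aligned reads to GRCm38 with STAR and quantified them against Ensembl release 95 with RSEM, through nf-core/rnaseq 3.0. They deposited, per gene and library, expected counts (estimates that divide shared reads between genes), TPM, FPKM and lengths. FPKM, made by the authors with the same tool, was not used here. Gene symbols came from a table for Ensembl identifiers, which named 54723 of 54838 genes. Coordinates and sequences came from GENCODE M21 on GRCm38, and nuclear copies were found with BLAST 2.17.0.

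Expected counts were rounded, filtered by filterByExpr (minimum count 10, minimum total 15), scaled by trimmed mean of M-values and fitted with edgeR 4.0.16 in R 4.3.3 (quasi-likelihood, genotype as the only term, Benjamini-Hochberg adjustment over 14719 genes, threshold 0.05). The fit was run on simulated data with few changed genes, as many raised as lowered, which does not test the choice of scaling. CPM used the scaled library sizes. Levels between genes were divided by effective length. Values are mean ± SD, and fold changes are given with the SE of the fit. The scaling factors were 1.00 to 1.08 in WT and 0.934 to 0.986 in cKO. Limits from a count of 0 cover counting error only.

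The members and lists were chosen with earlier results of these data known, so that p-values are given only for genes outside the mitochondrial genome. The named genes were every mt- gene over 3 counts in any library, Arid3a, a fixed set of 11 nuclear regulators, the 3 genes with the lowest adjusted p of each nuclear list, and listed markers. Alternatives were DESeq2 1.42.0, library size alone, scaling without mt- genes, no filter, limma-voom (limma 3.58.1), the replicate number as a block and each animal left out. TPM, annotated length, scaling within the 13 coding genes and added copies served for the shares and levels. Adding the copies gene by gene was chosen after seeing the data. The strand check took genes with a mean of at least 100 counts and opposite genes with at least 50, and called a count whole within 0.005. It left out mitochondrial genes and genes that overlap another gene on their own strand.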

Additional observations from a re-analysis of the deposited data

Results flagged for a closer look

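Over 52 groups of 5 animals tested with Dixon's 95% limit, 1 had an animal far from the others, where chance flags about 1 in 20. This was the tRNA mt-Ts1, with 53 counts in cKO animal 3 and 15 in the next of its group, a gap of 0.884 of the range.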

How the results depend on the processing

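The number of genes called in the whole fit was 4167, with 4743 by DESeq2, 5571 by library size alone (1541 higher and 4030 lower, so that 27.7% of calls were higher against 55.1%), 4215 with scaling without the mt- genes, 3397 with no filter, 4117 by limma-voom and 3007 to 4684 with 1 animal left out. The replicate numbers did not pair the animals (correlations of deviations −0.212 to 0.0947), and the replicate block gave 3052 calls, with 26 on the nuclear mitochondrial lists in place of 47. These lists had 109 calls by library size alone and 20 to 67 with 1 animal left out, of which 20 without cKO animal 5, 21 without WT animal 4 and 28 without cKO animal 1. The block gave 17 higher and 9 lower calls on these lists, in place of 20 and 27. Of 43 called nuclear genes (those named from the mitochondrial lists, Arid3a, Malat1, Rn7sk and 9 of the named markers), 20 were called under all 18 alternatives to the fit, and all 43 had the same direction. Gfm1 was called in 6, Chga in 7, Sdhd in 8, Cox7c and Dclk1 in 9, Sdhb, Uqcrfs1 and Acta2 in 10, Fastkd5, Mrpl19 and Ndufa6 in 11, and 12 others in 12 to 17. Mtpap (−0.065) and Tfb2m (−0.063) changed sign by library size alone. So did, with 1 animal left out, Fastk (−0.076 to 0.023), Slirp (−0.071 to 0.043), Tfam (−0.045 to 0.013) and Tefm (−0.098 to 0.055), with Tfam called by library size alone and the others under none.

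The median log2 fold change of the 13 coding genes was 0.47 to 0.65 with 1 animal left out and 0.52 with the copies added, and mt-Nd6 was at 1.47 to 1.65. The mitochondrial share differed by 2.46 percentage points, 2.11 to 2.79 with 1 animal left out, 3.56 with the copies, 3.37 of TPM and 6.18 of TPM with the copies. The share of mt-Nd6 in the coding genes differed by 1.05 points, 0.991 to 1.09 with 1 animal left out, 0.708 with the copies and 2.51 of TPM. The WT ratio of mt-Nd6 to mt-Nd5 was 1.07, 1.06 to 1.09 with 1 animal left out and 0.920 by annotated length.

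Adding the copies turned mt-Nd3 to 0.29, and to 0.29 with scaling that also left out the mt- genes and copies. Scaling to the total of the 13 coding genes moved the median to 0.029, with mt-Nd1 at −0.047, mt-Nd2 at −0.136, mt-Nd4l at −0.355, mt-Nd4 at −0.045 and mt-Cytb at −0.301. With the copies in that total the median was −0.029, with mt-Nd1 at −0.033, mt-Nd2 at −0.122, mt-Co2 at −0.074, mt-Co3 at −0.029, mt-Nd4l at −0.002, mt-Nd4 at −0.031 and mt-Cytb at −0.286, while mt-Nd5 (0.73), mt-Nd6 (1.03) and mt-Atp8 (0.47) stayed above. Such scaling sets the total to be equal in both genotypes by construction. The cause of the other changes was not tested.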
